A study of Homo sapiens with 6 samples.

Results

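Well studied genes of cell death and of the p53 response were followed in MDAMB468 cells with and without overexpression of IGFBP2. They were BAX, BAK1, BCL2L1, BCL2L11, MCL1, BID and BBC3 of the BCL2 family and the p53 target genes CDKN1A and MDM2. The 9 genes were chosen by name, and all 9 of them were found among the 10487 genes of the expression table. MDAMB468 is a triple-negative breast cancer cell line with amplified EGFR. The study asked what IGFBP2, a secreted binding protein of insulin-like growth factors, changes in these cells, and profiled 3 biological replicates of control cells (labelled wild type, untreated) and 3 of cells stably overexpressing IGFBP2 (also untreated) by 3′ end RNA sequencing. Overexpression was driven by CRISPR activation, in which a catalytically inactive Cas9 fused to the VPH transcriptional activator is guided to the gene by lentiviral constructs. Whether the control cells carried the activator or a non-targeting guide is not given in the sources used here.

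The BCL2 family decides whether a cell commits to death through its mitochondria. The effectors BAX and BAK1 open the outer mitochondrial membrane, the guardians BCL2L1 (BCL-XL) and MCL1 hold them in check, and the BH3-only proteins BCL2L11 (BIM), BID and BBC3 (PUMA) sense stress and release that brake. The tumour suppressor p53 switches on BAX, BBC3, the cell cycle inhibitor CDKN1A (p21) and MDM2, which in turn marks p53 for destruction. Much of the control of these proteins lies after transcription, in cleavage, phosphorylation and protein turnover, which RNA counts do not measure.

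As p53 target genes are among the 9, matches to the p53 consensus, a pair of 10-base half-sites, were looked up within 3000 bases on either side of each gene's start in hg38. Up to 3 mismatches outside the fixed C and G of each half-site core and a spacer of at most 1 base were allowed. This allowance was set after a stricter search had been seen and with known p53 sites in mind, so that the matches only describe the letters. A match was present for 7 of the 9 genes and for 40.0% of 20046 protein-coding genes. With at most 2 mismatches, a match was present for 4 of 9 (BAX, BID, CDKN1A and MDM2) and for 9.03%. The windows of BCL2L1 and MCL1 held none. Those of 4 p53 target genes are shown because these genes are textbook targets, with the half-sites in capitals.
CDKN1A: tcagGAACATGTCCCAACATGTTGagct
MDM2: agctGGTCAAGTTCAGACACGTTCcgaa
BAX: gggcTCACAAGTTAgAGACAAGCCTgggc
BBC3: gcgcCTGCAAGTCCTGACTTGTCCgcgg
The CDKN1A match (chr6:36676445-36676472, plus strand, 2 mismatches) began at position -11 from the annotated gene start and overlapped an exon of a longer isoform. The MDM2 match (chr12:68808919-68808946, plus strand, 2 mismatches) lay in an intron, 746 bases after the start. The BAX match (chr19:48954440-48954468, plus strand, 3 mismatches) was upstream, at position -371 from the start, and the BBC3 match (chr19:47231316-47231343, minus strand, 3 mismatches) was intronic, 1427 bases after the start. The BAX match shown is 1 of 3 in its window and the CDKN1A match 1 of 2, each picked for its textbook status. Another BAX match, exonic and 398 bases after the start, had 2 mismatches, fewer than the one shown. p53 binding itself was not analysed here.

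IGFBP2 itself was first examined as a check of the labels. Its level was 93.5, 87.3 and 135.9 CPM (read counts scaled to library size) in control replicates 1 to 3 and 566.4, 1175.6 and 498.3 CPM in the overexpressing ones. Every overexpressing library was above every control, and IGFBP2 rose by 2.73 on the log2 scale (SE 0.33, adjusted p = 0.0148, limma). Of the 10487 genes, 66 passed an adjusted p under 0.05, which is 0.629%, of which 45 were higher and 21 lower under overexpression. With an edgeR count test at the same threshold, the paper reports many more changed genes, more of them lower than higher. That test was not run here. The libraries held between 2497353 and 4579587 reads on the listed genes, and the first principal component (37.7% of the variance) separated the groups. All 9 fixed markers of basal-like breast epithelium were listed. Of ESR1, PGR and ERBB2, taken to be low or unlisted in a triple-negative line, ERBB2 was listed (15.8 to 37.0 CPM) and the others were not. Of 9 leukocyte, fibroblast and endothelial markers COL1A1 alone was listed (9.36 to 27.5 CPM). As these are bulk libraries, fewer cells expressing a gene and less RNA per cell cannot be told apart.

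None of the 9 genes passed the adjusted threshold, against 0.629% of all genes. At so small a share, no call among 9 genes is close to the background. Their adjusted p-values ran from 0.344 to 0.987, with log2 differences between -0.46 and 0.48, 5 above 0 and 4 below. At an unadjusted p under 0.05 there was 1 of the 9, BCL2L11, against 13.0% of all genes. The groups did not overlap for 2 of the 9, BCL2L11 and MDM2, against 18.0% of all genes. Neither 1 nor 2 of 9 genes is far from these backgrounds. The median size of the log2 difference was 0.34 for the 9 genes and 0.21 for all genes. The 95% interval lay within a 2-fold change either way for 8 of the 9, BBC3 being the exception. It ended only just inside for BAX and CDKN1A (both at 0.98) and for MDM2 (at -0.94). Fold changes of low genes are understated on the log2(CPM + 1) scale used.

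**Figure D1:**
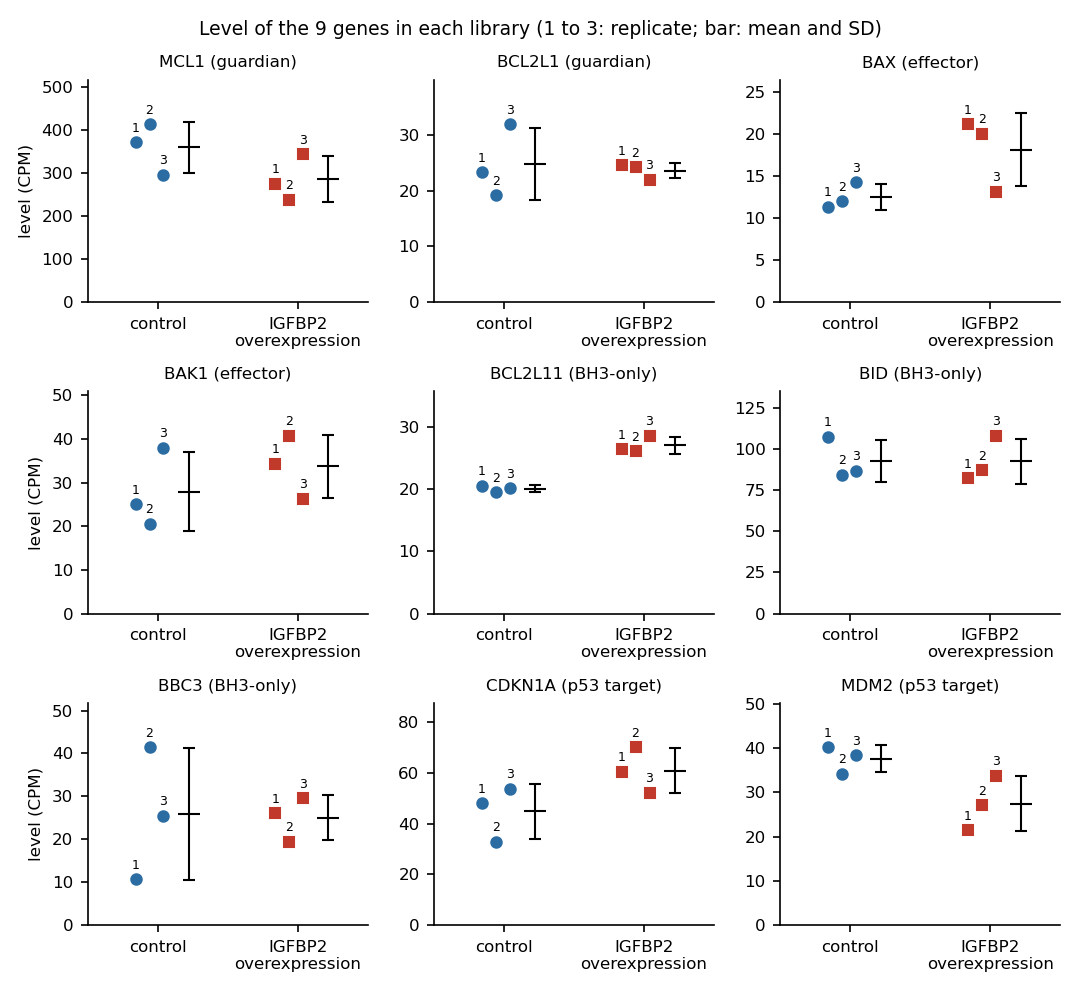
Level in CPM (linear axes from 0) of each of the 9 genes in the 3 control (blue circles) and the 3 IGFBP2 overexpression libraries (red squares), numbered by replicate, with the mean and SD as a bar. BCL2L11 lies above and MDM2 below in all 3 overexpressing libraries, and the groups overlap for the other 7 genes.

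In the control libraries MCL1 was the most abundant of the 9 at 360.3 CPM ± 59.5 (SD, n = 3), followed by BID at 93.1 ± 12.7, CDKN1A at 44.9 ± 10.8 and MDM2 at 37.6 ± 3.07. BAK1 (27.9 ± 9.05), BBC3 (25.9 ± 15.4), BCL2L1 (24.8 ± 6.51) and BCL2L11 (20.1 ± 0.595) came next, and BAX was the lowest at 12.5 ± 1.48. These are levels of 3′ end reads, about 1 per transcript, which need no scaling by length although priming may differ between genes. MCL1 and BID each stood clear of their neighbours, whereas CDKN1A and MDM2 overlapped, as did each further neighbour down to BCL2L11, which stood clear of BAX. Under overexpression the order began in the same way, with MCL1 at 285.6 ± 53.3, BID at 92.5 ± 13.7 and CDKN1A at 60.9 ± 8.92, all 3 clear of one another and of the rest, and ended with BAX at 18.1 ± 4.3.

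Among the effectors, BAX (chr19:48954815-48961798) measured 11.3, 12 and 14.2 CPM in control and 21.1, 20 and 13.1 CPM in overexpressing replicates 1 to 3. Replicates 1 and 2 were above all controls and replicate 3 was within their range, so the groups overlapped. The log2 difference was 0.48 (SE 0.22, 95% interval -0.03 to 0.98), with an adjusted p of 0.41 by limma and an exact two-sided permutation p of 0.2. BAX was also the least counted of the 9, with 35 to 62 reads per library, and counting error alone accounts for an SE of 0.17. BAK1 (chr6:33572547-33580293), its partner in pore formation, measured 25.1, 20.6 and 38.0 CPM in control and 34.3, 40.7 and 26.3 CPM in overexpressing cells. Control replicate 3 was above overexpressing replicates 1 and 3, and the log2 difference of 0.29 (SE 0.27, 95% interval -0.31 to 0.89) had an adjusted p of 0.706. The BAK1 difference was 0.10 without control replicate 2, 0.15 without overexpressing replicate 2, 0.45 without overexpressing replicate 3 and 0.53 without control replicate 3. BAK1 has 2 annotated pseudogenes, BAK1P1 and BAK1P2, that could share its reads. BOK, the remaining effector, had a log2 difference of -0.22 (SE 0.18, adjusted p = 0.674), so the 3 effectors were not on 1 side of 0.

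Of the guardians, MCL1 (chr1:150560895-150579738), a short-lived protein that depends on continued synthesis, measured 371.6, 413.3 and 296.0 CPM in control and 275.2, 238.2 and 343.3 CPM in overexpressing cells. Overexpressing replicate 3 lay between the controls, and the log2 difference was -0.34 (SE 0.22, 95% interval -0.83 to 0.15, adjusted p = 0.564), or -0.21 without overexpressing replicate 2 and -0.48 without replicate 3. With 706 to 1674 reads per library MCL1 was the best counted of the 9, and counting error gives an SE of 0.04, so its spread was between libraries. The last 500 bases of MCL1 share exonic bases with ADAMTSL4-AS1 on the same strand and with ADAMTSL4 on the opposite one, and its count is uncertain to that extent. BCL2L1 (chr20:31664452-31723989) measured 23.3, 19.2 and 31.9 CPM in control and 24.6, 24.2 and 22.0 CPM in overexpressing cells. All overexpressing values lay inside the control range, with a log2 difference of -0.04 (SE 0.22, 95% interval -0.54 to 0.45). BCL2, the founding member, was low at 2.96 to 7.79 CPM and had a log2 difference of -0.45 (SE 0.26, adjusted p = 0.51). None of the 3 measured guardians passed the test. Their estimates were below 0, but that of BCL2L1 was near 0 and turned to 0.15 without control replicate 3. BCL2, with 9 to 28 reads per library, averaged 6.18 CPM in control and 4.36 CPM in overexpressing cells. BCL2 thus passed the expression filter (mean CPM above 5 in either condition) only through control. The other 3 listed guardians were not in the table.

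The BH3-only gene BCL2L11 (chr2:111119378-111168444), whose product BIM binds all guardians and is a known mediator of death after EGFR inhibition, measured 20.6, 19.5 and 20.2 CPM in control and 26.5, 26.1 and 28.6 CPM in overexpressing cells. Every overexpressing library was above every control, with a ratio of the group means of 1.35. The log2 difference was 0.41 (SE 0.17, 95% interval 0.03 to 0.79), with an unadjusted limma p of 0.0383 and an adjusted p of 0.344. Over 14 alternative settings the unadjusted limma p of BCL2L11 ran from 0.0317 to 0.0913 and was under 0.05 in 4 of them. The exact two-sided permutation p was 0.1, the smallest that 3 libraries against 3 can give. Its log2 SD was 0.04 in control and 0.07 in overexpressing libraries, which is less than the counting error of a single library at this depth (0.17 and 0.16, from 50 to 93 reads). The spread of the replicates therefore understates the error of this gene, for which counting alone gives an SE of 0.14. The 3 genes whose log2 values followed BCL2L11 most closely over the 6 libraries were HSPA1A (Pearson r = 0.9911), RHEB (0.9895) and LYPD5 (0.982), as a description over libraries that share the group difference.

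BID (chr22:17734138-17774770), which links death receptors to mitochondria after cleavage by caspase 8, measured 107.7, 84.6 and 86.9 CPM in control and 82.3, 87.2 and 108.1 CPM in overexpressing cells. The groups covered nearly the same range, with a log2 difference of -0.01 (SE 0.20, 95% interval -0.46 to 0.44). BBC3 (chr19:47220822-47232766) measured 10.7, 41.4 and 25.5 CPM in control and 26.1, 19.4 and 29.6 CPM in overexpressing cells. The control libraries of BBC3 spread more widely than those of any other of the 9 genes (log2 SD 0.94), and the log2 difference of 0.12 (SE 0.42, 95% interval -0.82 to 1.07) leaves a change of 2-fold upwards within its interval. The mean CPM of BBC3 was lower under overexpression (25 against 25.9), opposite in sign to its log2 difference. PMAIP1 (NOXA) and BIK, further BH3-only genes, had log2 differences of 0.29 (SE 0.25) and 0.45 (SE 0.39). Of the 7 measured of 8 listed BH3-only genes, none passed the adjusted threshold, 4 were above 0 and 3 below, and the median was 0.12.

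**Figure D2:**
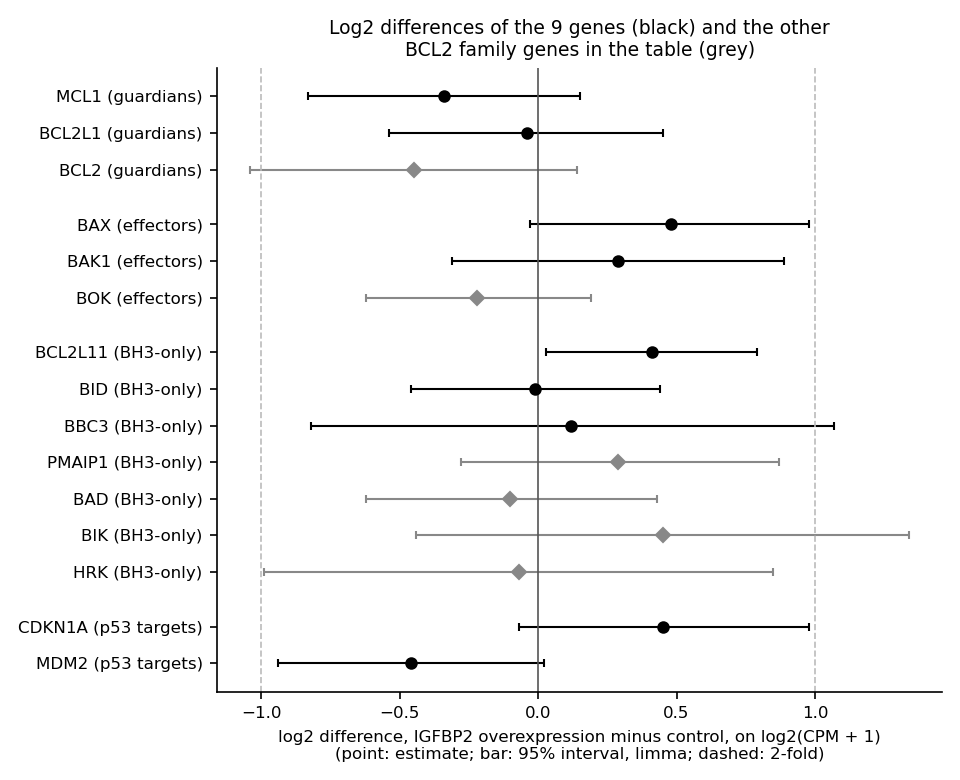
Log2 difference (IGFBP2 overexpression minus control, on log2(CPM + 1)) of the 9 genes (black circles) and of the other BCL2 family genes measured (grey diamonds), with 95% intervals from limma as bars, a solid line at 0 and dashed lines at a 2-fold change. Of the 9, the interval of BCL2L11 (0.03 to 0.79) alone excludes 0 before adjustment, and BBC3 has the widest.

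The balance of death-promoting and protective RNAs was then followed within each library, as the difference of log2(CPM + 1) between 2 genes, with no test. BCL2L11 minus MCL1 was -4.11, -4.34 and -3.81 in control and -3.33, -3.14 and -3.54 in overexpressing libraries. All 3 overexpressing values were higher, and the means differed by 0.75. BCL2L11 minus BCL2L1 was -0.17, 0.02 and -0.63 in control and 0.11, 0.11 and 0.36 in overexpressing libraries, again with no overlap and with means 0.45 apart. For BAX minus MCL1 the means differed by 0.82, for BAX minus BCL2L1 by 0.52 and for BAK1 minus MCL1 by 0.63, and for these 3 pairs the groups overlapped, overexpressing replicate 3 lying among the controls in each and replicate 1 also for BAK1 minus MCL1. The 5 differences reuse the same genes and are not separate evidence. Both pairs without overlap hold BCL2L11, whose own groups did not overlap, and how often other gene pairs separate was not examined.

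**Figure D3:**
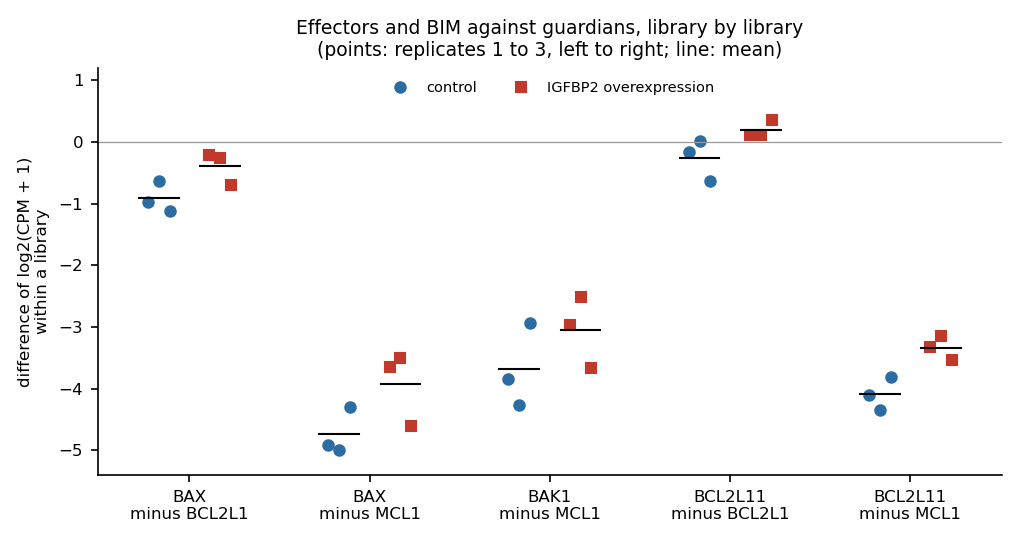
Difference of log2(CPM + 1) between a death-promoting and a protective gene within each library (blue circles: control; red squares: IGFBP2 overexpression; replicates 1 to 3 from left to right; line: mean). The groups separate for both pairs with BCL2L11, whose own groups do not overlap, and overlap for the 3 pairs with BAX or BAK1.

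Of the p53 targets, CDKN1A (chr6:36676460-36687337), which halts the cell cycle by inhibiting cyclin-dependent kinases, measured 48.0, 32.8 and 53.8 CPM in control and 60.4, 70.0 and 52.2 CPM in overexpressing cells. Control replicate 3 was above overexpressing replicate 3, so the groups overlapped. The log2 difference was 0.45 (SE 0.23, 95% interval -0.07 to 0.98, adjusted p = 0.451), and it was 0.25 without control replicate 2. MDM2 (chr12:68808177-68845544), the ubiquitin ligase that limits p53, measured 40.2, 34.2 and 38.4 CPM in control and 21.4, 27.1 and 33.8 CPM in overexpressing cells. All overexpressing libraries were below all controls, replicate 3 narrowly so. The log2 difference was -0.46 (SE 0.21, 95% interval -0.94 to 0.02), with an adjusted p of 0.403 and an exact two-sided permutation p of 0.1, the smallest possible here. It was -0.30 without overexpressing replicate 1 and -0.62 without replicate 3. The estimates of CDKN1A and MDM2, both classical p53 targets, thus lay on opposite sides of 0, with neither passing the test.

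The lists that follow were fixed by function and include those of the 9 genes that belong to them. Among regulators of the p53 pathway, 22 of 23 listed genes were measured, none was called, 16 were below 0 and the median was -0.05, against 0.00 for all genes. At an unadjusted p under 0.05 there were 2 lower genes of the 22 and no higher one, against 6.12% lower and 6.88% higher of all genes. These were EP300, a histone acetyltransferase that acts as a p53 coactivator (-0.79, SE 0.21, adjusted p = 0.162), and MDM4, the partner of MDM2 in restraining p53 (-0.67, SE 0.20, adjusted p = 0.229). EP300 ranged from 164.7 to 175.8 CPM in control and from 81.7 to 124.8 CPM in overexpressing libraries. It passed the adjusted threshold in limma with a mean-variance trend (adjusted p = 0.0333) and in limma voom (adjusted p = 0.0407). EP300 was not called under the other alternative settings. The settings that called it also raised the number of all genes called, from 66 to 160 and 141.

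The wider list of p53 target genes (63 listed, 46 measured) had no call, 26 genes above 0 and 20 below, and a median of 0.11. At an unadjusted p under 0.05, 3 of the 46 were higher and 2 lower, which is near the 6.88% and 6.12% of all genes. E2F7, a transcriptional repressor of the cell cycle, came nearest to the threshold at -1.16 (SE 0.20, adjusted p = 0.0503), at a low level of 5.01 to 6.87 CPM in control and 1.64 to 2.58 CPM in overexpressing cells. TNFAIP8, which inhibits apoptosis, had a log2 difference of 1.45 (SE 0.36, adjusted p = 0.142), and DRAM1, an autophagy regulator, of 1.19 (SE 0.31, adjusted p = 0.162). TNFAIP8 averaged 4.44 CPM in control and 13.6 CPM in overexpressing cells, and DRAM1 2.48 and 7.46 CPM. TNFAIP8 and DRAM1 passed the expression filter (mean CPM above 5 in either condition) only through the overexpressing group, and E2F7 only through control. These 3, the targets with the smallest p, lay on both sides of 0.

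As CDKN1A acts on the G1 to S transition, its partners were also counted. Of 22 listed cyclin-dependent kinase inhibitors and G1/S partners 19 were measured, none was called, and the median was 0.13. There were 5 genes higher at an unadjusted p under 0.05 and none lower, against 6.88% higher and 6.12% lower of all genes. Every overexpressing library was above every control for 5 of the 19, where 989 of the 10487 genes were so placed. These were the same 5 genes, so the placement is not separate evidence. They were CCND1 (1.02, SE 0.22, adjusted p = 0.106), CCND3 (0.67, SE 0.20) and PCNA (0.54, SE 0.20), with CCNE1 (0.62, SE 0.24) and E2F1 (0.51, SE 0.22) named after their values were seen. CCND1, a D-type cyclin, measured 150.3, 133.0 and 94.2 CPM in control and 267.0, 272.4 and 218.8 CPM in overexpressing cells. It passed the adjusted threshold by limma with a mean-variance trend (adjusted p = 0.0096), with voom (adjusted p = 0.016) and with a pseudocount of 5 (adjusted p = 0.0326). CCND1 was not called under the other alternative settings. The settings that called it also raised the number of all genes called, from 66 to 160, 141 and 129.

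Downstream of the mitochondria, the list of apoptosome components, caspases and their inhibitors (25 listed, 24 measured, median 0.04) held 1 called gene, against 0.629% of all genes. At an unadjusted p under 0.05, 2 of the 24 were higher and none lower, against 6.88% higher and 6.12% lower of all genes. BIRC3 (cIAP2), a ubiquitin ligase that blocks death receptor signalling and a target of NF-kappaB, measured 3.55, 10 and 5.66 CPM in control and 24.6, 21.9 and 24.3 CPM in overexpressing cells. It rose by 1.82 on the log2 scale (SE 0.30, adjusted p = 0.0424), but its call was lost under a replicate block, with a pseudocount of 0.1, and when any 1 of the overexpressing libraries or control replicate 3 was left out. Its relative BIRC2 (cIAP1) had a log2 difference of 0.67 (SE 0.25, adjusted p = 0.294) and XIAP, the direct caspase inhibitor, of -0.37 (SE 0.21, adjusted p = 0.508). The other BCL2-related genes (15 listed, 13 measured, median 0.09) had no call. Those with the smallest p were BNIP3 (0.80, SE 0.28, adjusted p = 0.28) and BNIP3L (0.61, SE 0.23, adjusted p = 0.30), both mitophagy receptors, and BCL2L12 (0.42, SE 0.27, adjusted p = 0.563).

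BCL2L11 is also a known target of the FOXO factors, which AKT holds out of the nucleus. Of 17 listed FOXO factors and targets 13 were measured, none was called, 6 were above 0 and 7 below, and the median was -0.15. BCL6 (-1.0, SE 0.31, adjusted p = 0.231), a repressor under FOXO control, and PINK1 (0.62, SE 0.20, adjusted p = 0.248), a mitochondrial kinase, lay on opposite sides of 0. The list thus had no single direction. BCL6 averaged 6.0 CPM in control and 2.62 CPM in overexpressing cells, so it passed the expression filter only through control.

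**Figure D4:**
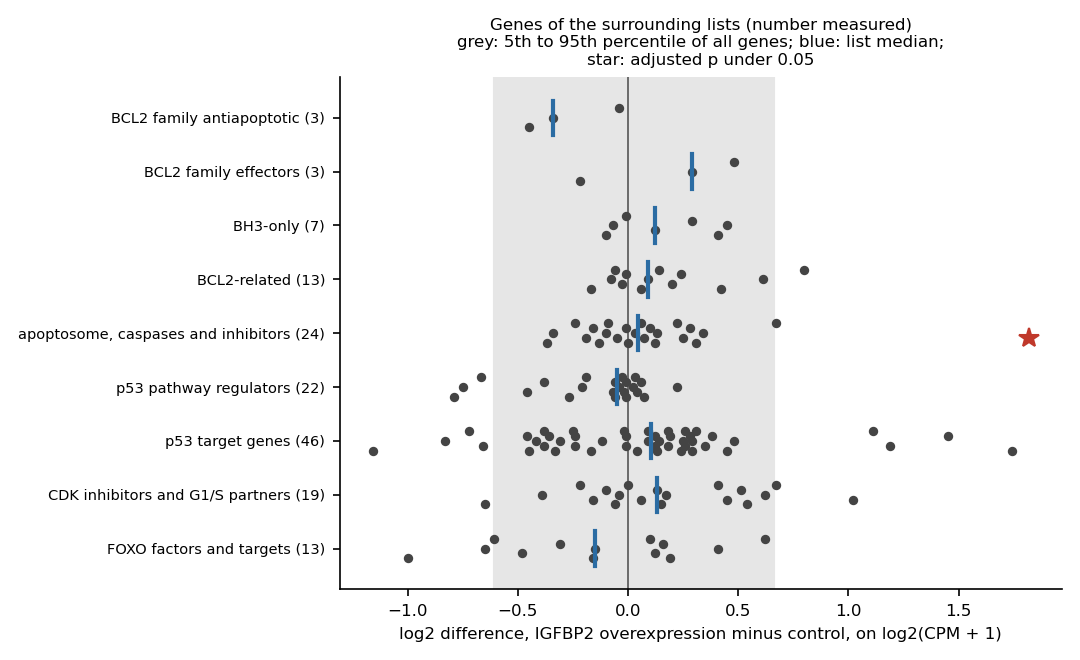
Log2 difference (IGFBP2 overexpression minus control, on log2(CPM + 1)) of every measured gene in 9 lists, with list medians in blue, the 5th to 95th percentile of all 10487 genes (-0.61 to 0.66) in grey, and genes with an adjusted p under 0.05 as red stars. The list medians lie between -0.34 and 0.29, and BIRC3 at 1.82 is the one star.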

How the data were processed

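MDAMB468 cells were sequenced from the 3′ end in 3 libraries per condition. As stated in the methods of the study, reads were trimmed (bbduk), mapped to hg38 (STAR) and counted per gene (htseq-count 0.9.1). The authors normalized these counts with edgeR. The strand setting of the counting is not given. The values deposited by the authors are log2(CPM + 1), after a filter of mean CPM above 5 in either condition. Values corresponded to whole reads in 100.0% of cases (within 0.1 read), which gave the reads per gene; intervals from them cover counting error only.

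limma (3.58.1, R 4.3.3) was run on these log2 values for the whole table of 10487 genes, with a term for condition and without a trend, with Benjamini-Hochberg adjustment at 0.05, in place of the count test of the study. Fold changes on this scale understate those of low genes. The limma code was tested on simulated data. The 9 genes, the lists around them and the test were chosen with earlier results of these data known, among them counts of called genes under other settings. Beside IGFBP2 and the 9 genes, the text names in each list the called genes and, below 3, those of smallest p, plus the 3 genes most correlated with BCL2L11. A few others (BOK, PMAIP1, BIK, CCNE1, E2F1 and markers) were added by name. One gene of the pathway is not reported here. Positions are from GENCODE 44 on GRCh38. For the p53 consensus, an exact search of the half-site in promoter windows was run first and replaced by the one reported. Alternatives were scaling by library size or upper quartile, a mean-variance trend, voom, pseudocounts of 0.1 and 5, a minimum of 10 CPM, a replicate block and leaving out each library.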

Additional observations from a re-analysis of the deposited data

How the results depend on the processing

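Over 14 alternatives none of the 9 genes was called (126 fits, lowest adjusted p 0.245, BAX, limma). At an unadjusted p under 0.05 there was 1 (BCL2L11) with the settings reported, and over the alternatives BCL2L11 was there in 4, MDM2 in 3, BAX in 2 and CDKN1A in 2 of 14. BAX, BAK1, BCL2L11, MCL1, CDKN1A and MDM2 kept their sign in all 14. The sign of genes near 0 turned: BID to 0.013 with upper quartile scaling, and without 1 library BID ranged from -0.13 to 0.1, BCL2L1 from -0.2 to 0.15 and BBC3 from -0.39 (without control replicate 1) to 0.55. The number of genes called went from 66 to 160 with a mean-variance trend, 141 with voom, 37 and 129 with pseudocounts of 0.1 and 5, 6 at an adjusted p under 0.01, and 12 to 79 without 1 library, 12, 13 and 17 being without overexpression replicates 1 and 2 and control replicate 3. BIRC3 was not called (0 in its list) with a pseudocount of 0.1, under the replicate block, or without 4 of the libraries. p53 regulators had 1 call with the trend and voom (EP300), G1/S partners 1 with the trend, voom and a pseudocount of 5 (CCND1), and without 1 library p53 targets ranged from 0 to 1 (GDF15, without control replicate 2) and FOXO targets from 0 to 1 (TNFSF10, without control replicate 1). The replicate numbers did not pair the libraries (correlations of deviations 0.172, -0.064 and 0.084); a replicate block gave 55 calls and none of the 9. The causes were not tested. Counting error alone gives an SE of 0.17 for BAX (fitted SE 0.22), 0.14 for BCL2L11 (0.17) and 0.13 for BBC3 (0.42).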
